A study of Xenopus laevis with 3 samples.

Results

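The genes described here are those for otoconia, the acellular membranes of the inner ear and a carbonic anhydrase, and they were chosen by gene symbol: *otoa*, *otog*, *otol1*, *oc90*, *tecta*, *tectb*, *sparc*, *sparcl1* and *ca2*. The choice was made with earlier results of these data known. Probe sets (Xl-PSIDs) were taken where the platform's annotation gave exactly 1 of these 9 symbols, after the ending .L or .S was cut. *X. laevis* is allotetraploid, and these endings mark the copies of a gene on its L and S subgenomes. The rule found 5 Xl-PSIDs among the 32635 on the array, for 3 of the 9 symbols: *otoa.L*, *sparc.L*, *sparc.S*, *ca2.L* and *ca2.S*. No Xl-PSID carried any of the other 6 symbols (*otog*, *otol1*, *oc90*, *tecta*, *tectb* and *sparcl1*), so those genes were not analysed here. Of these, *otog*, *oc90* and *tectb* are also symbols in the RefSeq gene table used here. Since 16851 Xl-PSIDs have no symbol in the annotation, this says nothing of their transcripts in the larval ear.

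RNA came from whole inner ears of *X. laevis* larvae at stages 50 to 52, aged 15 to 21 days post-fertilization, a group called *s50*. The study used it as the youngest of its ages, at which the auditory and vestibular end organs are already formed. The labels give no strain, genotype or treatment. Each of 3 replicates was a pool of animals (15, 38 and 24) hybridized to an array of its own, named s50_1, s50_2 and s50_3 here. Labelling started from 1 µg of total RNA for s50_1 and s50_2 and from 0.7 µg for s50_3. The arrays of the later ages were not analysed here, so there was no second group to set *s50* against, no test was made, and all values are descriptions of these 3 pools.

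Otoconia are crystals of calcium carbonate embedded in a matrix of secreted proteins above the sensory maculae, where their weight bends the hair bundles when the head tilts or accelerates. Growth of the crystals needs calcium and bicarbonate in the endolymph, and carbonic anhydrases, which convert carbon dioxide and water to bicarbonate and a proton, are one source of the bicarbonate. The otoconial membrane, the cupula and the tectorial membrane are related acellular gels. They hold glycoproteins such as the tectorins and otogelin, and otoancorin attaches such gels to non-sensory cells.

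All 5 Xl-PSIDs were bright on each of the *s50* arrays and differed little between the pools. Intensities are GCRMA values on the log2 scale in arbitrary units, so that a difference of 1 is a doubling. A mean of 4 or more was taken as detected, since the study's methods set this as the lowest average intensity of an upregulated Xl-PSID. By this rule 5 of 5 were detected, against 65% of the 32475 Xl-PSIDs that are not control or reporter probe sets. All 5 also had at least 4 on every array, as did 61.5% of those Xl-PSIDs. The members' median was 12.54, and that of all these Xl-PSIDs was 7.51. Genes with a symbol, each by its brightest Xl-PSID, are the closer background for members chosen by symbol. Counted so, 3 of 3 member genes were detected, against 80.5% of all genes with a symbol, whose median was 9.64. The lowest value of any member on any array was 11.67, while 42 control probe sets for *Bacillus subtilis* transcripts lay between 1.83 and 2.17. No member had the suffix that Affymetrix gives to probe sets able to match several transcripts. Because intensity depends on the probes as well as on the transcript, the members are not ranked against each other.

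Otoancorin, the product of *otoa*, is a glycoprotein at the interface between inner ear epithelium and the gels above it, and loss of the gene causes deafness in humans and mice. The Xl-PSID for *otoa.L* (Xl2.48725.1.S1_at) had 12.26, 12.62 and 12.72 on the arrays s50_1, s50_2 and s50_3, with a mean of 12.53 ± 0.25 (SD, n = 3). The value on s50_1 was the lowest, and those on s50_2 and s50_3 lay close together. The range of 0.46 was the widest among the members and corresponded to a 1.38-fold difference in linear intensity between the highest and lowest array. Each of these values was brighter than 91.7% to 94.7% of all Xl-PSIDs on its array. RefSeq holds a single *otoa* gene, the L copy.

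The matricellular glycoprotein encoded by *sparc* binds calcium and collagen, is known from bone, cartilage, basement membranes and endothelium, and belongs to the matrix of the fish otolith. The Xl-PSID for *sparc.L* (Xl2.21860.1.S1_at) had 14.61, 14.64 and 14.59 on s50_1, s50_2 and s50_3, a mean of 14.61 ± 0.03 (SD, n = 3). That for *sparc.S* (Xl2.8379.1.S1_at) had 14.61, 14.66 and 14.63 on the same arrays, a mean of 14.64 ± 0.02. Both copies were highest on s50_2, by margins of under 0.1, and nothing set one pool apart from the others. The ranges were 0.06 for *sparc.L* and 0.05 for *sparc.S*. Both lay above 99.3% of all Xl-PSIDs on every array, in the part of the scale where the brightest Xl-PSID had a mean of 15.77. Near that upper end the spread between arrays was small for Xl-PSIDs in general, with a median SD of 0.13 at means of 14 to 15. The sequences of the probes were not used here, so it is not known whether each Xl-PSID reads its own copy only.

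The cytosolic enzyme carbonic anhydrase II, the product of *ca2*, is found in red blood cells, osteoclasts and ion-transporting epithelia, including those of the inner ear. The Xl-PSID for *ca2.L* (Xl2.9576.1.S1_at) had 12.53, 12.59 and 12.51 on s50_1, s50_2 and s50_3, a mean of 12.54 ± 0.04 (SD, n = 3). The Xl-PSID for *ca2.S* (Xl2.15327.1.S1_at) had 11.71, 11.67 and 12.00 in the same order, a mean of 11.79 ± 0.18. The Xl-PSIDs for the copies did not follow the same order of pools, though the order for *ca2.L* rests on a range of only 0.08. On s50_3 *ca2.S* was highest, 0.21 above its own mean, and *ca2.L* was lowest, 0.03 below its own. On s50_2 *ca2.L* was 0.04 above its mean and *ca2.S* was 0.12 below. The range of *ca2.S*, 0.33, was the second widest among the members, and that of *ca2.L* was 0.08. As for *sparc*, it is not known whether each Xl-PSID reads its own copy only.

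**Figure D1:**
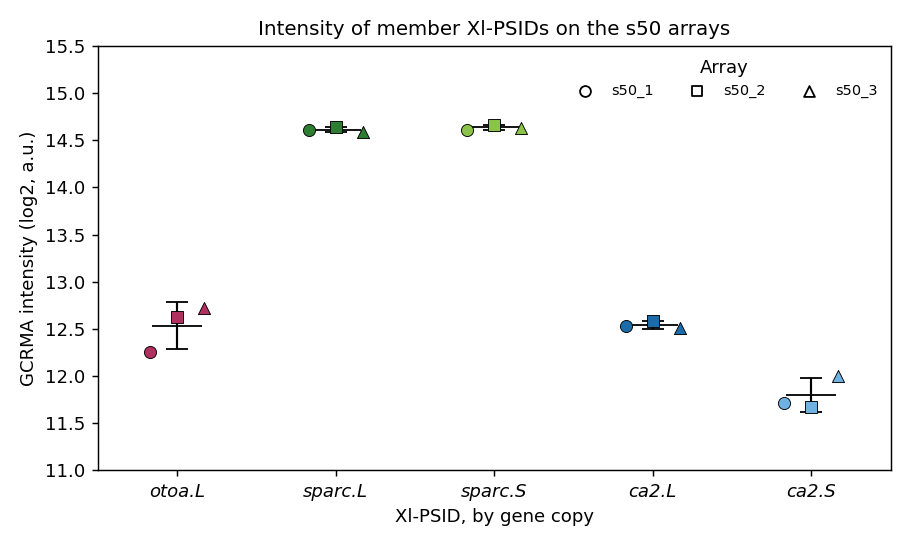
GCRMA intensity (log2, arbitrary units) of the 5 member Xl-PSIDs, with a point for each *s50* array, a horizontal line at the mean and bars of 1 SD over 3 pools. The points of *sparc.L*, *sparc.S* and *ca2.L* nearly coincide, while *otoa.L* was lowest on s50_1 (12.26) and *ca2.S* highest on s50_3 (12.00), and the vertical axis does not start at 0.

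The spread of the members between pools was small beside that of the array as a whole. That background comes from these 3 pools alone. Pearson correlations between the arrays were 0.979 for s50_1 and s50_2, 0.975 for s50_2 and s50_3 and 0.956 for s50_1 and s50_3. In the study's scatter plots replicates correlated best with each other, except those of *s50*. No member had a range of 1.5 or more on the log2 scale, whereas 26.6% of the 21119 detected Xl-PSIDs did. The number was taken from the minimum fold change in the methods. They do not state its scale, but the study's tables list fold changes as log2 values. Read as a ratio of linear intensities, 1.5 was not reached by a member either, since *otoa.L* had the largest ratio, 1.38. Of detected Xl-PSIDs, 70.5% reached it. All 5 had a range of at most 0.5, against 23.9% of detected Xl-PSIDs. Spread fell with level over the array, so Xl-PSIDs of like brightness are the closer background. Among those with a mean of at least 11 (18.1% of all), a level chosen after the members' values were seen, 44.1% had a range of at most 0.5 and 7.52% had one of 1.5 or more. The members' median SD was 0.04, and that of Xl-PSIDs with a mean of at least 11 was 0.29. Near the brighter *sparc* copies the background was narrower. Xl-PSIDs within 0.5 of their means had a median SD of 0.11 for *sparc.L* and 0.10 for *sparc.S*.

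Set beside Xl-PSIDs within 0.5 of its own mean, *ca2.L* was among the least variable, as 2.15% of 1769 such Xl-PSIDs had a smaller SD. The share was 4.69% of 277 for *sparc.S* and 6.41% of 281 for *sparc.L*. For *ca2.S* it was 19.9% of 2556. The SD of *otoa.L* was near the middle, with 43.0% of 1783 Xl-PSIDs of like level below it. An SD from 3 arrays is itself imprecise, and these positions carry no test.

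**Figure D2:**
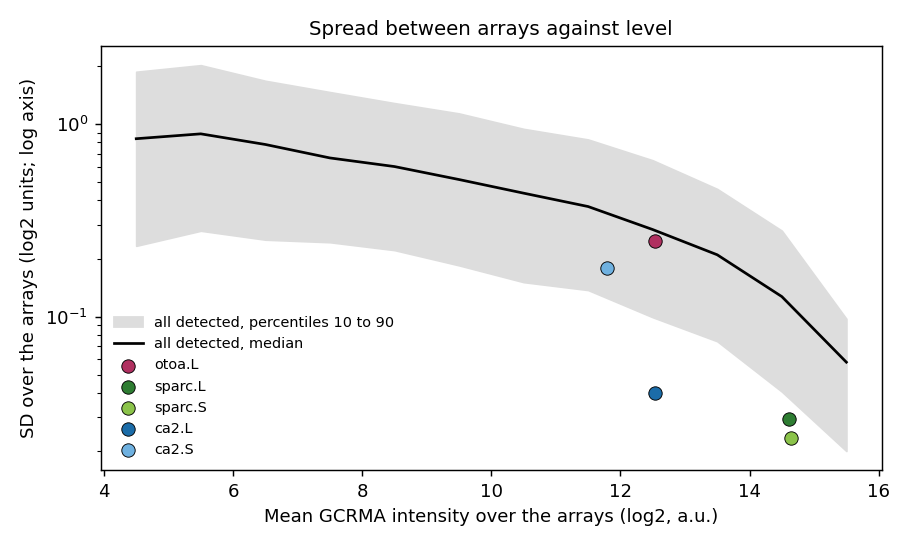
SD over the 3 *s50* arrays (log2 units, logarithmic axis) against mean intensity (log2, arbitrary units), with the median (line) and percentiles 10 to 90 (band) of all detected Xl-PSIDs in bins of 1. The points for *ca2.L* (0.04), *sparc.L* (0.03) and *sparc.S* (0.02) lie below the band, *ca2.S* (0.18) lies inside it and *otoa.L* (0.25) is near the median line.

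No pool was high or low for all members. Array s50_2 was highest for 3 members (*sparc.L*, *sparc.S* and *ca2.L*) and s50_3 for 2 (*otoa.L* and *ca2.S*), and s50_1 had the highest value of none. Among all detected Xl-PSIDs, the share at its highest was 33.8% for s50_1, 23.5% for s50_2 and 42.7% for s50_3. Array s50_1 was lowest for *otoa.L* and *sparc.S*, s50_2 for *ca2.S*, and s50_3 for *sparc.L* and *ca2.L*. Of all detected Xl-PSIDs, 42.3% had their lowest value on s50_1, 21.5% had it on s50_2 and 36.2% had it on s50_3. The largest difference of a member from its own mean was that of *otoa.L* on s50_1, -0.28, which lay within the quartiles of all detected Xl-PSIDs on that array (-0.38 to 0.35). These quartiles include dimmer Xl-PSIDs, which spread more, so they are a wide background for members this bright. On s50_1 and s50_3 the signs for the *sparc* copies rest on differences of under 0.03, and on s50_1 both turned when the arrays were quantile normalized again. The highest and lowest arrays of *ca2.L* rest on a range of 0.08.

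**Figure D3:**
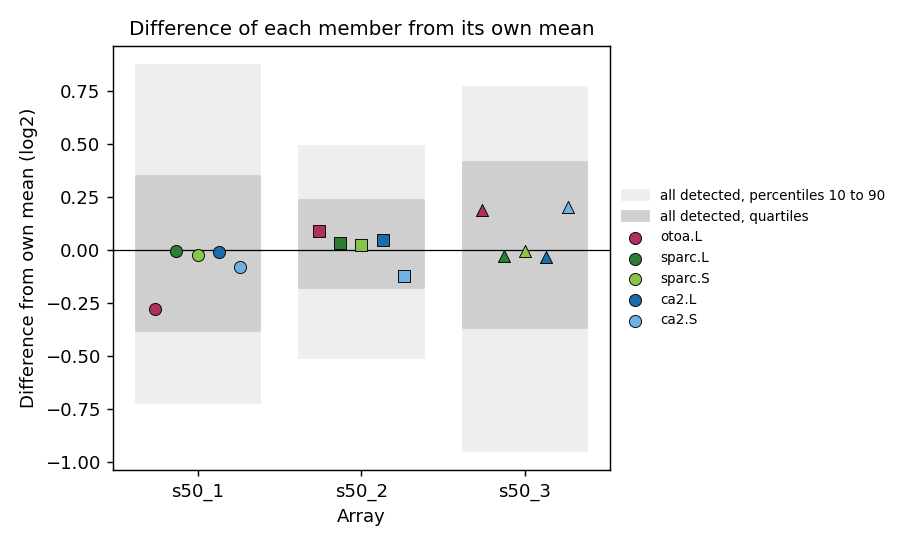
Difference of each member Xl-PSID from its own mean (log2) on each *s50* array, over bands for the quartiles and percentiles 10 to 90 of 21119 detected Xl-PSIDs. All 15 points lie within the quartile bands, and the farthest from 0 is *otoa.L* on s50_1 at -0.28. The bands include Xl-PSIDs dimmer than the members, which spread more between arrays.

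Markers of skeletal muscle were also lower on s50_1. All 10 detected muscle genes of a list of 12 lay below their own means there, against 53% of all detected Xl-PSIDs, with a median difference of -1.08. The 11 measured muscle genes averaged 9.10, 10.89 and 10.79 on s50_1, s50_2 and s50_3. Of 6 detected bone and osteoclast genes, 5 lay below their own means on s50_1, with a median difference of -0.40. Supporting cell genes went the other way. Of 11 detected, 4 lay below their own means on s50_1, with a median difference of 0.32. Of 3 detected hair cell genes, 2 lay below theirs, with a median difference of -0.16. The part of any of these lists in the lower *otoa.L* value on that array was not tested. In these pools a smaller share of a cell type and less RNA per cell cannot be told apart. The 3 detected Xl-PSIDs with a gene name whose differences from their own means came closest to those of *otoa.L* over the 3 arrays were *dnttip1.L*, *hnrnpc.L* and *sgcb.L*, at Euclidean distances of 0.0032, 0.0042 and 0.0089. Of 11350 Xl-PSIDs searched, 233 lay within a distance of 0.1, so such likeness is common with 3 arrays.

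Red blood cells, bone and osteoclasts, cartilage and endothelium, which are known to express *ca2* or *sparc*, were checked by marker lists. Of the measured genes, 11 of 13 erythroid, 6 of 9 bone and osteoclast, 2 of 3 cartilage and 4 of 5 endothelial genes were detected, against 80.5% of all genes with a symbol. The erythroid list had a median of 11.30, with 15.27 ± 0.02 for the globin *hba3.L*. Its median differences from own means were -0.007, 0.06 and -0.05 for s50_1, s50_2 and s50_3. Single genes spread far more and in different orders of pools. On these arrays *hba-l5.L* had 10.75, 11.22 and 11.92, and the globin *hbg1.L* had 4.60, 10.43 and 7.44. The erythroid genes *alas2.S* (10.19, 10.79 and 9.75) and *tal1.S* (8.67, 9.91 and 8.29) were lowest on s50_3, while *gata1.L* (3.67, 5.37 and 6.08) was highest there. Other Xl-PSIDs of *tal1.S* (1.92 ± 0.01) and *hba-l5.L* (2.05 ± 0.03) were not detected. Type I collagen *col1a2.L* (13.43 ± 0.20) and alkaline phosphatase *alpl.L* (10.29 ± 0.63) were detected, while the osteoblast genes *sp7.L* (1.81 ± 0.01) and *bglap.S* (2.27 ± 0.36) were not. The bone and osteoclast list had a median difference of 0.24 on s50_3, and its genes did not move together there. The osteoclast phosphatase *acp5.L* had 11.05, 10.23 and 5.50 on s50_1, s50_2 and s50_3, and the protease gene *mmp9.1.S* had 8.65, 11.29 and 10.69. The cartilage gene *cnmd.L* had 14.85 ± 0.09, while *cnmd.S* (2.64 ± 0.13) and *ihh.S* (1.93 ± 0.02) were not detected. The endothelial gene *egfl7.L* had 12.54 ± 0.28 on its brightest Xl-PSID, and 7.98 ± 0.94 and 1.92 ± 0.02 on others. That brightest one was highest on s50_1, *cldn5.L* (11.32, 11.68 and 12.05) and *pecam1.L* on s50_3, and *tek.S* on s50_2. The endothelial *flt1.S* was not detected (2.55 ± 0.80). How much of the *sparc* and *ca2* signal came from each of these cells was not tested.

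Of 23 hair cell symbols 3 had an Xl-PSID, and all 3 were detected, at 12.65 ± 0.44 for *myo6.L*, a myosin of the hair bundle base, 11.56 ± 0.47 for *ush1c.S*, the bundle scaffold harmonin, and 8.77 ± 0.25 for *cib2.S*, a partner of the transduction channel. Hair cell symbols without an Xl-PSID included *otof*, *atoh1*, *pou4f3*, *tmc1* and *cdh23*. Whether the *myo6.L*, *ush1c.S* and *cib2.S* values came from hair cells alone was not tested. Of 18 supporting cell genes 11 were detected, against 80.5% of all genes with a symbol. The 18 came from 12 symbols, since numbered copies of *hes5* were counted as separate genes, and several of these copies were not detected. Among those detected were *fabp7.L* (14.47 ± 0.17), *jag1.L* (13.42 ± 0.70), *sox9.S* (13.05 ± 0.39) and, on its brightest Xl-PSID, *sox2.L* (11.76 ± 1.10). The gap junction gene *gjb2.L* had 14.61 ± 0.17 on its brightest Xl-PSID, and 13.90, 13.42 and 11.89 on s50_1, s50_2 and s50_3 on the other. Those not detected included *prox1.L* (1.99 ± 0.07), *cdkn1b.S* (1.90 ± 0.02), *lfng.S* (2.66 ± 0.97) and copies of *hes5* such as *hes5.3.L* (2.09 ± 0.05). The Xl-PSIDs given for *hba3.L*, *hbg1.L*, *col2a1.L*, *thbs1.S*, *atp2b1.L*, *hnrnpc.L* and *otor.L* have a suffix for probes that can match several transcripts. The brightest one for *gjb2.L* has it too.

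Other genes for otoconia and acellular membranes were measured through a list of 16 symbols, of which 5 had an Xl-PSID and 4 were detected. Otospiralin, a small secreted protein of the inner ear, had 14.57, 14.51 and 14.59 on s50_1, s50_2 and s50_3 with *otos.L* and 11.66, 12.17 and 12.62 with *otos.S*. The zona pellucida domain gene *zpld1.S*, whose relatives include the tectorins, had 12.95 ± 0.14. The others were *cyba.L* (8.99 ± 0.37), a subunit of the NADPH oxidase that otoconia require in the mouse, and the matrix gene *emilin2.L* (6.76 ± 0.31). The otopetrin gene *otop3.L*, of a family of proton channels, was not detected (3.36 ± 0.07). Over all genes with a symbol, 80.5% were detected by their brightest Xl-PSID, with a median of 9.64, and the list had a median of 8.99.

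An otoconial protein best known from *Xenopus* was on the array under another symbol. Otoconin-22, a relative of secreted phospholipases in the aragonite crystals of amphibians, is a synonym of *pla2g2e.S* in RefSeq. Its Xl-PSID had 14.41, 14.90 and 14.45 on s50_1, s50_2 and s50_3, a mean of 14.59 ± 0.27. The pool of 38 animals was highest, and the range was 0.49. Of the 280 Xl-PSIDs within 0.5 of its level, 88.9% had a smaller SD, the opposite end from the *sparc* copies. It was not on a list and was named after its values were seen, as was the secreted cartilage and ear protein gene *otor.L* (12.94 ± 0.26).

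For the tectorins and otogelin, values were read from genes outside the symbol rule that carry *tecta* or *otog* as a synonym. The gene now named *tecta.2.S*, a numbered copy whose synonyms include *tecta*, had 8.58, 8.91 and 7.64 on s50_1, s50_2 and s50_3, a mean of 8.38 ± 0.66. It was lowest on s50_3, and its range of 1.28 was wider than that of any member. *otogl2.L*, for which RefSeq lists *otog* among the synonyms, had 4.64, 6.40 and 2.68 on an Xl-PSID at the detection threshold (4.57 ± 1.86) and lay within the range of the *B. subtilis* controls on the other (1.96 ± 0.03). How these genes relate to the *tecta* and *otog* of other species was not examined.

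Of 7 measured genes for collagens of the tectorial membrane and basement membranes, several of them cartilage collagens too, 6 were detected. The background for this list and the next is the 80.5% of all genes with a symbol that were detected. Type IX collagen had 14.90 ± 0.03 for *col9a3.L*, 14.78 ± 0.02 for *col9a1.L* and 13.68 ± 0.33 for *col9a2.L*, and type II collagen *col2a1.L* had 14.62 ± 0.23. The list's median was 13.68. The basement membrane collagens *col4a1.L* (8.21 ± 0.72) and *col4a2.L* (6.90 ± 0.60) were lowest on s50_2, and *col5a1.L* was not detected (3.69 ± 0.80). The 5 measured genes of a list for the SPARC family and other matricellular proteins were all detected, with a median of 10.28. They included *fstl1.L*, a secreted protein with a SPARC-like domain (10.88 ± 0.24), and *smoc1.L*, a modular calcium-binding relative of SPARC (7.64, 5.49 and 6.51 on s50_1, s50_2 and s50_3). The adhesion-modulating matrix protein tenascin had 10.28 ± 0.47 for *tnc.L*, and the proteoglycan gene *spock2.S* had 6.04 ± 0.57. Thrombospondin *thbs1.S* had 13.82, 13.59 and 11.51, low on s50_3.

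Of 8 other carbonic anhydrase genes measured from a list of 15 symbols, 5 were detected and the median was 6.27. Over all genes with a symbol, 80.5% were detected and the median was 9.64. *ca12.L*, a membrane enzyme with its active site outside the cell, had 12.09 ± 0.18 on an Xl-PSID and 8.96 ± 0.63 on the other. The mitochondrial enzyme *ca5b.L* had 10.15 ± 0.32. The remaining detected genes had ranges of at least 1.5, at levels of 6 to 7 where the median SD of all Xl-PSIDs was 0.78. The membrane-anchored *ca4.2.L* had 7.26, 7.18 and 4.68, the cytosolic *ca13.L* had 5.55, 7.89 and 5.14, and the catalytically inactive *ca10.L* had 6.50, 7.19 and 5.35 on s50_1, s50_2 and s50_3. All 5 detected genes lay below their own mean on s50_3, against 45.9% of all detected Xl-PSIDs, with a median difference of -0.99. The brighter *ca12.L* and *ca5b.L* stayed near their means there, at 11.90 and 9.95. Of the *ca2* copies, *ca2.S* was at its highest on s50_3, and *ca2.L* stayed near its mean there, 0.03 below. Not detected were *ca14.L* (2.56 ± 0.71), *ca4.1.S* (2.15 ± 0.07) and *ca6.L* (2.31 ± 0.25), of which *ca6.L* encodes a secreted enzyme. In RefSeq's order of genes *ca2.L* is preceded by *ca13.L*, *ca1.L* and *ca3.L*, and of these only *ca13.L* carried an Xl-PSID.

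Genes that carry bicarbonate, protons and calcium were measured through 25 symbols, from which 12 genes had an Xl-PSID and 8 were detected, with a median of 7.69. Of all genes with a symbol, 80.5% were detected, with a median of 9.64. Plasma membrane calcium pumps had 13.07 ± 0.42 for *atp2b1.L* and 12.15 ± 0.37 for *atp2b4.L*, both lowest on s50_2. Among bicarbonate and related transporters, *slc4a11.L* had 12.37 ± 0.10, the red cell exchanger *slc4a1.L* had 11.28, 10.91 and 8.13 on s50_1, s50_2 and s50_3, and the anion exchanger *slc26a6* had 10.06 ± 0.08. Pendrin, which exchanges chloride and bicarbonate between epithelial cells and the endolymph, is encoded by several copies in *Xenopus*. The copy *slc26a4.3.S* had 7.82, 8.38 and 4.68 on s50_1, s50_2 and s50_3, and *slc26a4.1.L* was not detected (1.97, 2.01 and 2.03). A proton pump subunit of ion-transporting cells, *atp6v1b1.L*, had 3.17, 7.10 and 4.57, and its detection as a mean rests on s50_2. The pump subunit *atp6v0a4.L* had 2.92, 5.14 and 2.04, a mean of 3.37, which is not detected. The sodium bicarbonate cotransporter *slc4a7.L* had 8.42 ± 0.62, and *slc4a10.L* and *slc26a6.2.L* lay within the range of the *B. subtilis* controls. Some genes were detected by one Xl-PSID and not by another, among them *emilin2*, *thbs1*, *slc4a7* and *atp6v1b1*, and from the cell type lists *egfl7*, *cnmd*, *tal1* and *hba-l5*.

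**Figure D4:**
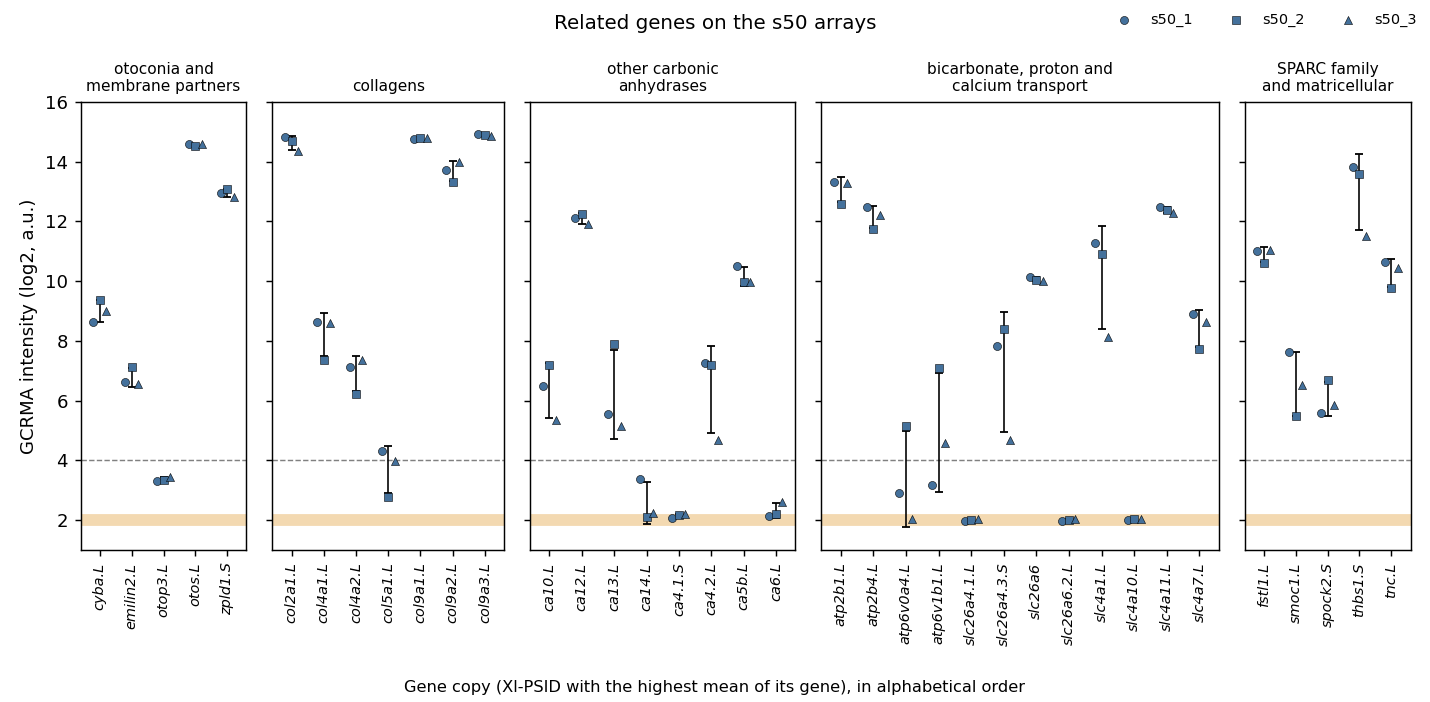
GCRMA intensity (log2, arbitrary units) of related genes from 5 lists on the *s50* arrays, with a point for each array and bars of 1 SD around the mean over 3 pools. The dashed line is the detection threshold of 4 and the tinted band the range of 42 *B. subtilis* controls, and several genes such as *ca13.L* (5.55, 7.89 and 5.14) and *atp6v1b1.L* (3.17, 7.10 and 4.57) ranged widely between pools at levels where the spread of all Xl-PSIDs was also larger than at the members' levels.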

How the data were processed

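The authors hybridized labelled cDNA to Affymetrix GeneChip *X. laevis* Genome 2.0 arrays, ran GCRMA on the scans (JMP Genomics 5.0), and the deposited values are a log2 intensity for each Xl-PSID and array. These values were used as deposited. GCRMA may have covered the arrays of the other ages too, a point not given in the sources used here. GCRMA makes the distributions of the arrays it covers more alike, though not equal, and compresses values near its floor. Small differences between pools therefore depend on it. The 96 control and 64 reporter probe sets were left out of counts over all Xl-PSIDs.

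Symbols came from the platform's annotation, which gave 1 symbol to 15505 Xl-PSIDs, several to 279 and none to 16851. They were updated through the gene identifier to RefSeq (*X. laevis* assembly 10.1), which matched 15394 and renamed 2. The deposited values carry no coordinates and none are given. With 3 arrays of a single group, means, SDs and ranges were computed in Python 3.11.15 with pandas 2.3.3, and no test was run. The number of arrays limits the precision. Counting steps were checked on simulated data, and the quantile normalization step on the deposited values. The simulated noise was far smaller than the spread between these arrays. That check therefore covers the code and not how reliable the counts are.

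The 12 gene lists (otoconia and acellular membrane partners, tectorial membrane collagens, other carbonic anhydrases, transport, SPARC family, hair cell, supporting cell, erythroid, bone and osteoclast, endothelium, cartilage, and skeletal muscle) counted numbered tandem copies as genes, each represented by the Xl-PSID of highest mean. Members and lists were chosen with earlier results of these data known. The genes named are all members, for each related list up to 6 detected genes by mean and those not detected where at most 6, and the 3 Xl-PSIDs most like the member with the widest range. The single genes given for cell types, and *otos.S*, *slc26a4.3.S*, *atp6v1b1.L*, *otor.L*, *pla2g2e.S*, *tecta.2.S* and *otogl2.L*, were picked with their values in view.

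The alternatives tried were a detection threshold of 3 or 5, a demand for 4 on each array, medians in place of means, quantile normalization of the 3 arrays, averaging of linear intensities, ranges of 1 or 2, other ways of joining a gene's Xl-PSIDs, omission of probe sets that match several transcripts, and omission of each replicate. A wider symbol rule, with tandem copies and older symbols, and a range of 1.5-fold in linear intensity were added after seeing the data.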

Additional observations from a re-analysis of the deposited data

How the results depend on the processing

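The 5 member Xl-PSIDs were detected, and none had a wide range, under each alternative that kept the symbol rule, with and without each replicate. Most of these alternatives could not have changed the counts. The lowest member value, 11.67, was far above every threshold tried, and the widest range, 0.46, was below every cutoff. Leaving out an array can only narrow a range, and no member had the suffix for probes of several transcripts. The count detected was 5 to 5 without a replicate, that of genes 3 to 3, that of wide ranges 0 to 0, and the median level 12.52 to 12.67, highest without s50_1, where *otoa.L* was low. With the wider symbol rule, which adds *tecta.2.S* and both *otogl2.L* Xl-PSIDs, 7 Xl-PSIDs and 5 genes were detected, 1 had a range of at least 1.5 (*otogl2.L*) and the median level was 12.16. Levels of single members moved by -0.10 to 0.14 over their 30 alternatives, each within 1 SD. With 3 arrays, neither the median nor omission of an array can move a mean by more than 1 SD. For those alternatives the bound is therefore no sign of stability. Quantile normalization changed the sign of 2 of 15 differences from the members' own means, those of *sparc.L* (0.03) and *sparc.S* (0.006) on s50_1. No paired analysis was possible because the arrays form a single group. The 36 recounts of genes detected in the lists stayed within 1.5 times their counts. Raw scans were not analysed here, so signal over local background is unknown.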
